A study of Homo sapiens with 12 samples.

Results

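Promoter summits without a GAS palindrome are the peak maxima of STAT5B that lay near a start of transcription although the preferred STAT letters were missing from the DNA under them. They were taken from the STAT5B peak lists of 6 human T cell acute lymphoblastic leukemia (T-ALL) lines as every peak of chromosomes 1 and 2 whose summit lay within 2 kb of a start site of any protein-coding transcript in GENCODE and whose surrounding GRCh38 sequence, 50 bp to either side, held no match to TTCNNNGAA. There were 1984 such summits among the 20803 peaks of chromosomes 1 and 2 and the 24844 peaks of all chromosomes in the lists used here. SUP-T13 contributed 552, DND-41 485, JURKAT 456, HSB-2 226, LOUCY 203 and KOPT-K1 62. Another 117 promoter summits, 5.57% of all promoter summits, carried the palindrome in their window.

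The series profiled STAT5B by chromatin immunoprecipitation and sequencing (ChIP-Seq) in lines labelled with high STAT5 activation (tyrosine-phosphorylated STAT5, pY-STAT5, high: SUP-T13, HSB-2, DND-41 and KOPT-K1) and low activation (LOUCY and JURKAT), and asked whether STAT5B binds genes of the T cell receptor pathway. Each line gave 1 STAT5B library, precipitated with an anti-STAT5B antibody, and 1 input library that served for peak calling, so the line is the replicate of its pY-STAT5 group and no line was measured again. All 6 lines were grown in RPMI with serum and are labelled precursor T cells of WT genotype, although the study describes an activating STAT5B mutation in KOPT-K1, an activating IL7R mutation in DND-41 and a lack of STAT5A in JURKAT. With peak lists alone, neither the precursor T cell label nor the pY-STAT5 label can be checked against expression. Read depth is not given in the peak lists used here.

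STAT5B is a cytoplasmic transcription factor that is phosphorylated on tyrosine by JAK kinases below cytokine receptors such as the IL-7 receptor, forms dimers and enters the nucleus. Its dimers read the interferon-gamma activated sequence, GAS, in which TTC and its inverted copy GAA stand 3 bases apart. In developing T cells this pathway drives survival and growth, and activating lesions of it recur in T-ALL. Promoters of widely used genes often lie in CpG islands, stretches rich in G and C that hold GC boxes (bound by SP and KLF factors) and sites of ETS, NRF1 or YY1 factors in place of a tissue-specific element.

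Windows of 5 sites with summits of at least 3 lines, where neighboring summits lay within 250 bp, are shown as examples of shared sites. They are richer in G and C than the average member, at 50.7% GC. They were chosen after their values were seen, among 8 shared sites whose window held no annotated untranslated region, and leave out CHPF, which has a GC box, and PPIAL4G (49.5% GC) and PNKD, which have none of the motifs. They are printed 5′ to 3′ on the plus strand of GRCh38 in lower case. Capitals mark GC boxes, GGGCGG on either strand, the only one of 12 searched motifs found in them; WNT10A held none of the 12. The site of INO80D, a subunit of the INO80 chromatin remodeler, spans chr2:206085737-206085837 in intron 1. WNT10A, a secreted WNT ligand, has its site at chr2:218892935-218893035 in exon 4, upstream of an internal start site. That of CELF3, a neuronal splicing regulator, lies upstream of the gene at chr1:151716891-151716991. SPEG, a kinase of striated muscle, has its site in intron 1 at chr2:219441755-219441855, and NUDT17, a Nudix hydrolase, in intron 1 at chr1:145845953-145846053. In the 5 windows GC content ran from 62.4% in CELF3 to 83.2% in WNT10A, and the closest approach to the palindrome had 2 mismatches, or 3 in WNT10A.
INO80D: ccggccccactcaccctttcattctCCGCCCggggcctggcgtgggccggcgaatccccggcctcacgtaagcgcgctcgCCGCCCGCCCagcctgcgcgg
WNT10A: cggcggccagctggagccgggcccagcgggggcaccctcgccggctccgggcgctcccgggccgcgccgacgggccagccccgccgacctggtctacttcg
CELF3: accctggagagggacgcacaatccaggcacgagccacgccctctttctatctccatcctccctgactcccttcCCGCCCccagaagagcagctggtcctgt
SPEG: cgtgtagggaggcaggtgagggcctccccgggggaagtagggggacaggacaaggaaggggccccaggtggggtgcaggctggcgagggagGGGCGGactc
NUDT17: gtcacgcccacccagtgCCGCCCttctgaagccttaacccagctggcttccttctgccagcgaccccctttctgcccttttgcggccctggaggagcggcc

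The lists covered chromosomes 1 and 2 unevenly, which bears on every count below. These chromosomes held 31.8% of the listed peaks in KOPT-K1, 76.6% in JURKAT and 81.1% in LOUCY, but 99.0% in SUP-T13, 98.0% in HSB-2 and 97.7% in DND-41. Whether the deposited lists are complete is not known, so member numbers, absences and recurrence hold for the lists as deposited. KOPT-K1 listed 29 summits on chromosome 1 and 848 on chromosome 2, and all of its 62 members were on chromosome 2. In the other lines chromosome 1 held most summits, from 1655 in LOUCY to 4732 in DND-41. A summit of any kind lay within 500 kb of 690 of the 3308 protein-coding genes in KOPT-K1, but of 1266 in HSB-2, 1454 in JURKAT, 1540 in LOUCY, 1612 in SUP-T13 and 2105 in DND-41. For 876 genes no line had one, so that their absence below says nothing about their promoters. For this reason a local background, made of positions within 500 kb of each summit and chosen after seeing the data, is given beside the background of all positions of both chromosomes.

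Member numbers did not separate the pY-STAT5 groups. The 4 high lines averaged 331 members ± 228 (SD, n = 4) and the 2 low lines 329.5 ± 179 (SD, n = 2), a difference of 1.75 (exact permutation test over lines, two-sided, p = 0.933). Single lines set its sign: it was -49.5 without DND-41, -71.8 without SUP-T13 and -124.75 without LOUCY, and 128.25 without JURKAT, 91.5 without KOPT-K1 and 36.8 without HSB-2. As a share of a line's summits on chromosomes 1 and 2, members made up 7.07% in KOPT-K1 and 7.56% in HSB-2, rising over 8.25% in DND-41, 9.43% in JURKAT and 10.7% in LOUCY to 12.8% in SUP-T13. High and low lines overlapped, with a difference of -1.15 percentage points between group means (exact permutation test, p = 0.667). Among peaks with −log10 q of at least 5 the difference was -9.79 points (exact permutation test, p = 0.133; over all alternatives 0.133 to 1). With 4 lines against 2, this test cannot give a p below 0.133, so at this cut none of the 15 splits gave a lower difference.

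Among all summits without the palindrome, the share at promoters differed little from the local background outside SUP-T13, and it was higher among strong peaks. It was 13.3% in SUP-T13 (exact Clopper-Pearson 95% interval 12.2 to 14.3), followed by LOUCY with 11.0% (9.64 to 12.6), JURKAT with 9.73% (8.90 to 10.6), and 9.15% in DND-41 (8.38 to 9.95), 8.14% in HSB-2 (7.15 to 9.22) and 7.51% in KOPT-K1 (5.80 to 9.52), where the intervals cover counting error only. Of all palindrome-free positions, taken every 50 bp, 7.98% were at promoters, and 5 of 6 lines were above it. The mean difference over all 6 lines was 1.83 percentage points ± 2.09 (SD, n = 6, exact sign-flip permutation test, p = 0.0938, Benjamini-Hochberg adjusted p = 0.0938). Against the local background the mean excess was 0.583 percentage points (exact sign-flip permutation test, p = 0.156). SUP-T13 stood 2.80 points above its local background of 10.5%, whereas the other 5 lines were between -0.314 and 0.321 points from theirs. The mean excess over all positions rose to 14.6 points among peaks with −log10 q of at least 5 and to 7.18 with equal numbers of the strongest peaks (exact sign-flip permutation tests, adjusted p = 0.0625 and 0.0833, over all alternatives 0.0417 to 0.875). This excess fell to 1.13 points without SUP-T13, 0.684 with intervals up to 5 kb and, chosen after seeing the data, 0.316 on chromosome 1 alone.

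Within the promoter window, members gathered close to the start site. In SUP-T13 299 of 552 members (54.2%, exact 95% interval 49.9 to 58.4) were within 500 bp, in DND-41 225 of 485 (46.4%, 41.9 to 50.9) and in HSB-2 104 of 226 (46.0%, 39.4 to 52.8). LOUCY had 91 of 203 there (44.8%, 37.9 to 51.9), JURKAT 183 of 456 (40.1%, 35.6 to 44.8) and KOPT-K1 18 of 62 (29.0%, 18.2 to 41.9). The share among all palindrome-free promoter positions was 31.5%, which KOPT-K1 did not exceed and the 5 other lines exceeded by 8.65 to 22.7 percentage points. The mean difference was 11.9 percentage points ± 8.38 (SD, n = 6; exact sign-flip permutation test over lines, p = 0.0625, adjusted p = 0.0833), and 11.5 against the local background (p = 0.0625 by the same exact test). It was 45.8 points among peaks with −log10 q of at least 5, 26.0 with equal numbers of the strongest peaks and, chosen after seeing the data, 25.4 on chromosome 2 alone. At the outer limit of the rule the density was flat, with 65 members in the last 100 bp inside it and 69 palindrome-free summits in the first 100 bp beyond it. High and low lines overlapped in this share as well.

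**Figure D1:**
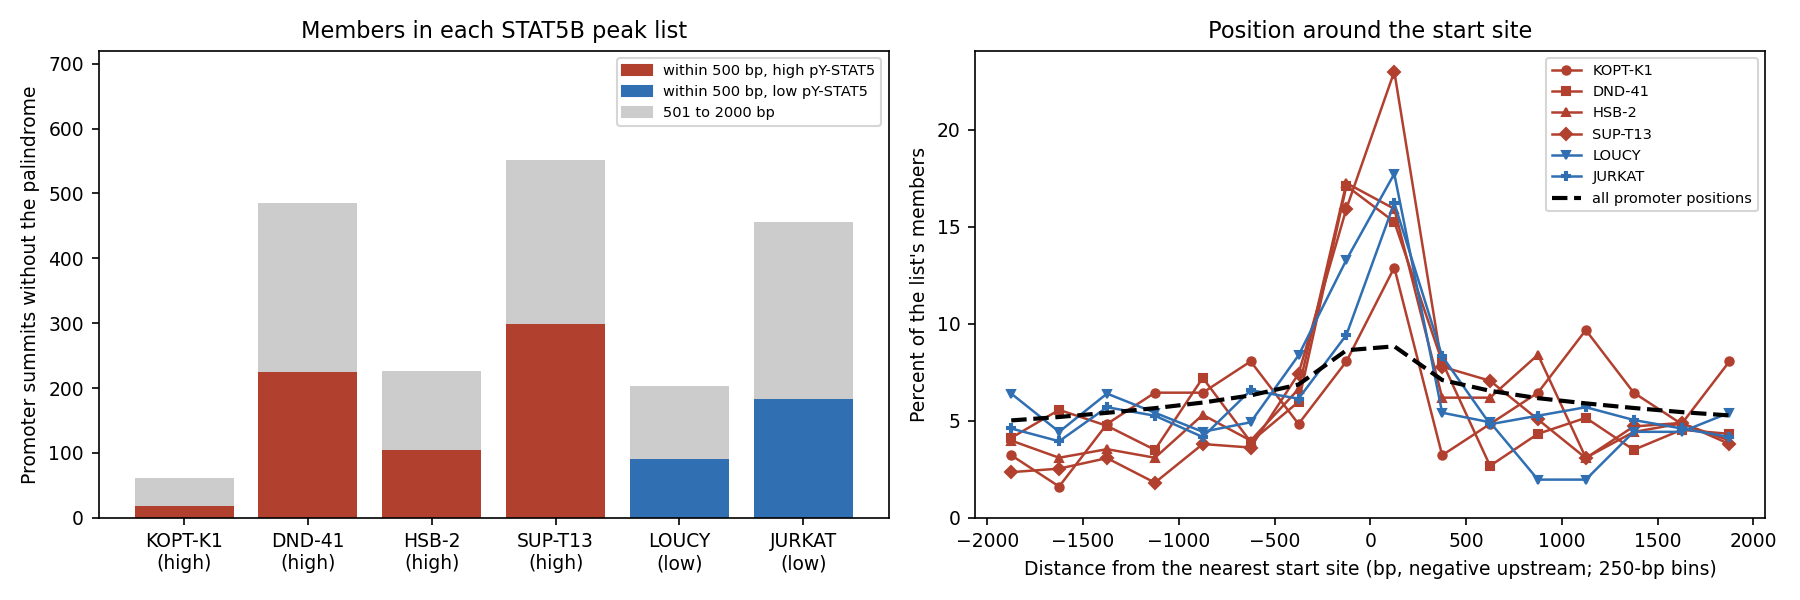
Left, number of promoter summits without the palindrome in each line, split by distance to the nearest start site (red for high and blue for low pY-STAT5, within 500 bp; grey, farther). Right, percent of each line's members in 250-bp bins around the nearest start site, with all palindrome-free promoter positions as a dashed line; 127 of the SUP-T13 members fall in the first 250 bp downstream, a bin that holds 8.84% of all positions.

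Since any transcript's start site counted, many members were not at the 5′ end of their gene. Within 2 kb of a gene's own 5′ end lay 853 of the 1984 members (43.0%), against 32.3% of promoter positions, and by line the share ran from 37.1% in KOPT-K1 to 52.7% in SUP-T13. In the canonical transcript of the nearest gene, 470 members (23.7%) were upstream, 188 (9.48%) in exon 1, 345 (17.4%) in intron 1, 811 (40.9%) in a later intron, 133 (6.70%) in a later exon and 37 (1.86%) downstream. With gene 5′ ends as the only start sites, the share of members within 500 bp exceeded its background by a mean of 23.7 percentage points (exact sign-flip permutation test, adjusted p = 0.0417; over all alternatives 0.0417 to 0.167).

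Peaks of this class were mostly weak. Median fold enrichment over input at the summit was 2.29 in DND-41, 2.16 in KOPT-K1, 2.05 in SUP-T13, 1.94 in HSB-2, 1.93 in JURKAT and 1.76 in LOUCY, and 97.4% of members were below 3. Other palindrome-free summits of the same line had a median close to this: members minus other summits was 0.0420 to 0.0955 in 5 lines and -0.00402 in JURKAT (mean 0.0524 ± 0.0342 SD, n = 6; exact sign-flip permutation test, p = 0.0625, adjusted p = 0.0833). The difference was -0.0843 among peaks with −log10 q of at least 5. Promoter summits that held the palindrome reached higher values in the 4 high lines: their highest fold was 6.35, in KOPT-K1, and their highest −log10 q 93.6, in HSB-2, against 4.38 and 50.6 among members, both in DND-41. In the low lines the highest values were among the members, which are far more numerous: up to a fold of 3.20 and −log10 q of 19.2 in LOUCY, against 2.56 and 13.9 with the palindrome, and up to 2.94 and 9.81 in JURKAT, against 2.42 and 4.66. Median fold at the summits with the palindrome was 3.09 for 8 summits in KOPT-K1 and 2.53 for 52 in DND-41, above the member medians of 2.16 and 2.29. It was 1.90 for 9 summits in LOUCY beside 1.76 for members, 2.06 for 13 in HSB-2 beside 1.94, 2.08 for 21 in SUP-T13 beside 2.05, and 1.94 for 14 in JURKAT beside 1.93. No test was run on this comparison.

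The stronger members lay closer to start sites, in windows richer in G and C and in CpG dinucleotides. A −log10 q of at least 5 was reached by 240 members, 3 of them in KOPT-K1, 24 in JURKAT, 32 in LOUCY, 38 in SUP-T13, 37 in HSB-2 and 106 in DND-41. Of these 240, 80.8% were within 500 bp of a start site, their windows averaged 61.9% GC and the median window held 8 CpG dinucleotides. Among the 1744 weaker members the values were 41.6%, 49.1% GC and a median of 1 CpG. The order was the same in each of the 6 lines, from 66.7% against 27.1% within 500 bp in KOPT-K1 to 85.8% against 35.4% in DND-41. In SUP-T13 the weaker members, too, were often close to start sites (53.1%) and GC-rich (53.5%). Intervals over 5 kb held 71.25% of the stronger and 45.2% of the weaker members, so many of the stronger summits are the maximum of a long interval. These are counts within lines and the differences were not tested over lines.

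**Figure D2:**
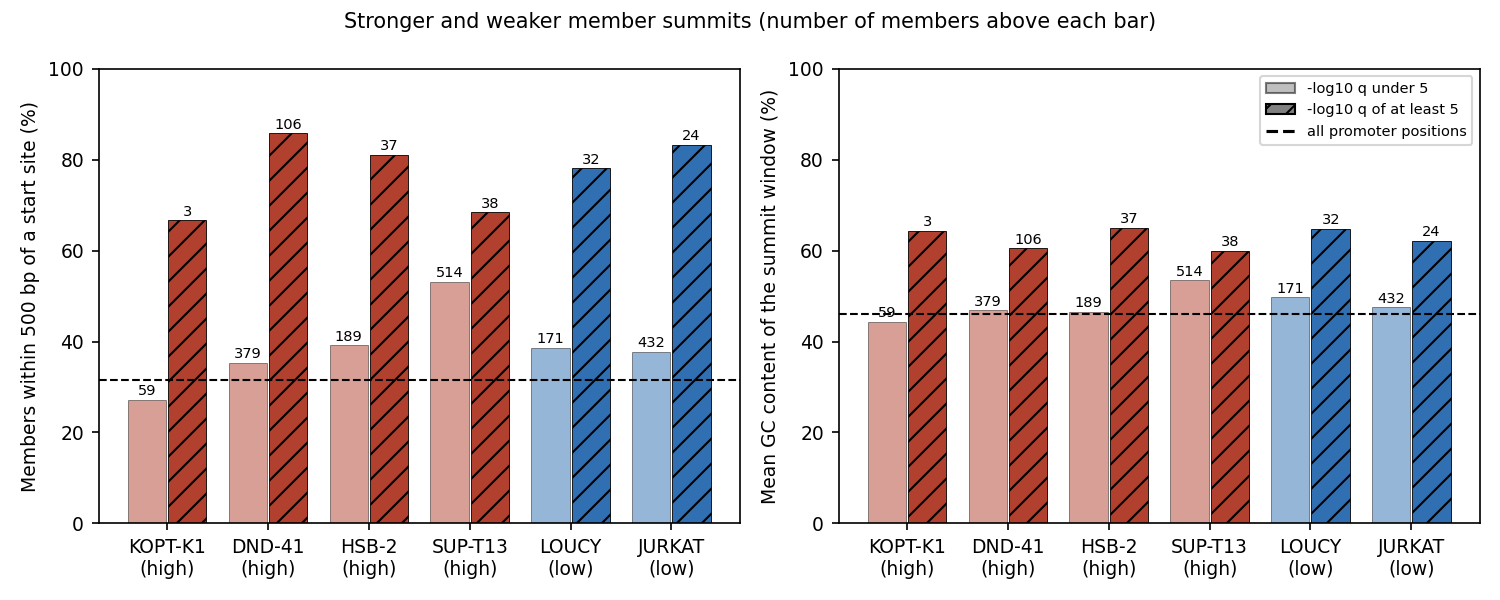
Percent of members within 500 bp of a start site (left) and mean GC content of the summit window (right) for members with −log10 q under 5 (pale bars) and of at least 5 (hatched bars) in each line, on axes from 0 to 100, with the value of all palindrome-free promoter positions as a dashed line. Hatched bars are higher in all 6 lines, from 66.7% to 85.8% on the left, and the number of members stands above each bar.

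Over all members, windows averaged 45.3% GC in KOPT-K1, 48.3% in JURKAT, 49.6% in HSB-2, 49.8% in DND-41, 52.2% in LOUCY and 53.9% in SUP-T13, with an SD among members of 13.5 to 15.1 in each line. Promoter positions averaged 46.1%, so that 5 of 6 lines were above it. The mean difference over all 6 lines was 3.76 percentage points ± 3.00 (SD, n = 6, exact sign-flip permutation test, p = 0.0625, adjusted p = 0.0833). Relative to promoter positions within 500 kb, all 6 lines were above background, by 2.94 points in JURKAT to 7.66 in SUP-T13, and the mean was 4.81 (exact sign-flip permutation test, p = 0.0313, the smallest value that 6 lines allow; adjusted p = 0.0833, over all alternatives 0.0417 to 0.6875). Windows of gene-body summits without the palindrome averaged between 39.6% GC in HSB-2 and 42.8% in SUP-T13.

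Of 12 motifs searched on both strands, GC boxes were the most frequent addition. They occurred in 205 of 1984 member windows (10.3%), ranging from 6.45% in KOPT-K1 and 8.33% in JURKAT over 9.48% in DND-41 and 10.3% in LOUCY to 12.3% in SUP-T13 and 12.4% in HSB-2. All promoter positions held a GC box in 4.83% of windows and windows centered on start sites in 21.4%, and all 6 lines lay between (mean difference to promoter positions 5.06 percentage points; exact sign-flip permutation test, p = 0.0313, adjusted over 12 motifs 0.188). ETS sites (CCGGAAG) were in 22 members, above the background of 0.549% in all 6 lines (mean difference 0.683 points; same exact test, p = 0.0313, adjusted p = 0.188). In windows 1 kb to either side of the summits, GC boxes were at 3.29% to 6.43% in 5 lines but at 8.06% in KOPT-K1, above its members, and ETS sites were as frequent as in members in KOPT-K1 and LOUCY. YY1 sites (ATGGCGG) were in 23 members, above 0.432% in 5 of 6 lines (exact p = 0.0938, adjusted p = 0.225). After adjustment 0 of the 12 motifs passed the threshold of 0.05 in the exact sign-flip permutation test, and 2 had an unadjusted p below it, the smallest that 6 lines allow.

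Motifs of T-lineage factors stood above their promoter background in some lines and below it in others. RUNX sites (TGTGGT) were in 143 members, with 3 of 6 lines above the background of 6.46%, led by KOPT-K1 at 11.3% and DND-41 at 9.69%. GATA sites (AGATAA) exceeded 6.04% in JURKAT alone, at 8.11%, E-boxes of the TAL1 type (CAGATG) exceeded 6.59% in 3 lines, and AP-1 sites (TGANTCA) exceeded 2.71% in 4 lines, up to 5.31% in HSB-2. CCAAT boxes (CCAAT) were in 186 members and exceeded 12.3% in KOPT-K1 alone, at 14.5%. NRF1 sites (GCATGCGC) were in 5 members and cAMP response elements (TGACGTCA) in 2. The adjusted p of these 7 motifs ran from 0.268 to 0.8125 (exact sign-flip permutation tests).

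Near-matches to the palindrome were less frequent in members than at promoter positions in 4 of 6 lines. A sequence with 1 mismatch to TTCNNNGAA was present in 32.2% of members and in 36.8% of promoter positions without the palindrome, and by line from 27.1% of LOUCY to 37.7% of DND-41 and 45.2% of KOPT-K1 members, a comparison that was not tested. The same TTC and GAA arms with a 2-base spacer (TTCNNGAA) were in 45 members, and with a 4-base spacer in 42, each below its background of 2.90% and 2.54% in 5 of 6 lines (exact sign-flip permutation test, p = 0.0625 and 0.0625, adjusted p = 0.188 for both). The nearest full palindrome lay a median of 976 bp from the summit in KOPT-K1 and between 1054 and 1221 bp in the other lines. A missing match says only that these letters are not in the window.

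**Figure D3:**
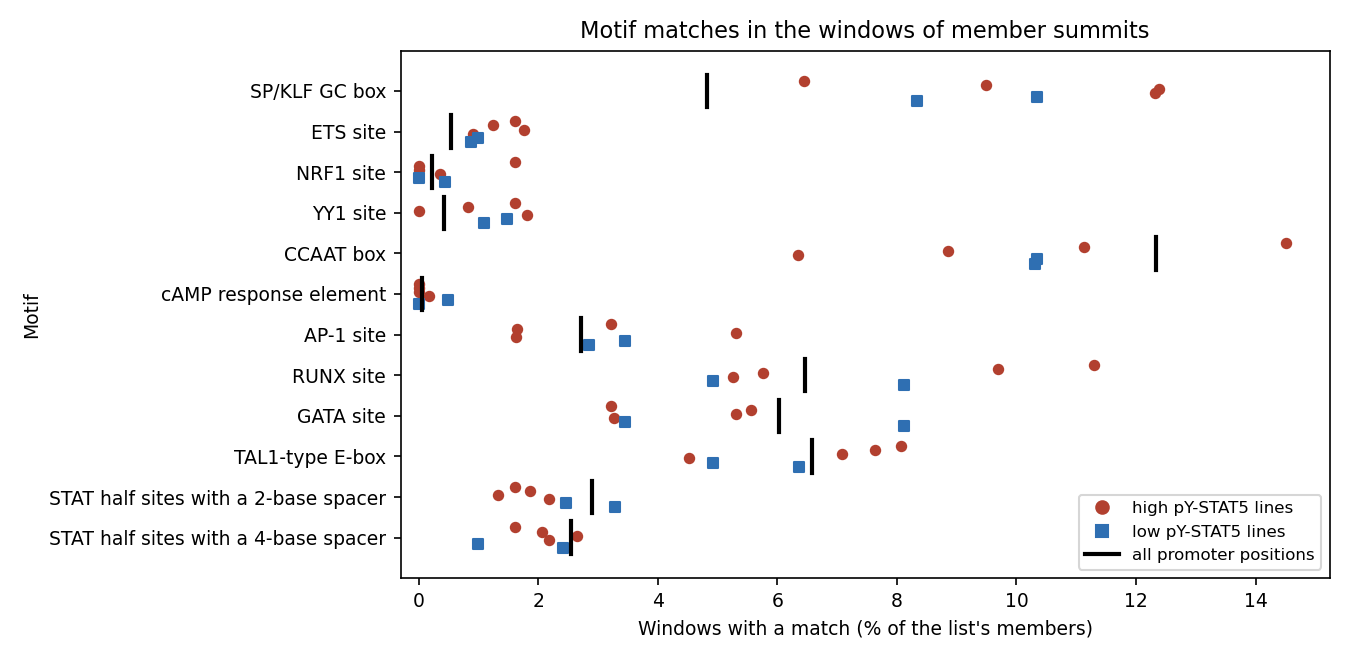
Percent of member windows with a match to each of 12 motifs on either strand, 1 point per line (circles, high pY-STAT5; squares, low pY-STAT5), with the percent of all palindrome-free promoter positions as a black bar. All 6 points lie above the bar for GC boxes (6.45% to 12.4% against 4.83%) and ETS sites, whereas 5 of 6 lie below it for CCAAT boxes, GATA sites and both spacer variants of the STAT arms.

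At the level of genes, 1106 of 3308 (33.4%) had a member in at least 1 line. By line this was 1.66% of genes in KOPT-K1, 6.14% in LOUCY, 6.68% in HSB-2, 11.9% in JURKAT, 12.2% in DND-41 and 14.8% in SUP-T13. A member was found in 1 line for 651 genes, 2 lines for 303, 3 lines for 109, 4 lines for 36 and 5 lines for 7; no gene had one in 6 lines, and 152 genes (4.59%) had one in at least 3. This last count rests on single lists: it was 69 without JURKAT, 80 without SUP-T13, 90 without HSB-2 and 92 without DND-41. Of the 162 genes with a listed summit of any kind within 500 kb in all 6 lines, 113 (69.8%) had a member in some line and 27 (16.7%) in at least 3. Recurrence by gene was rarely recurrence by site: at 21 of the 152 genes, summits of at least 3 lines lay at 1 site, where neighboring summits are within 250 bp. In all, 220 members were within 250 bp of a member of another line, and there were 82 sites of 2 lines, 16 of 3 lines and 2 of 4 lines.

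Shared sites resembled the strong ones. Members shared with another line lay within 500 bp of a start site in 69.1% of cases and averaged 60.2% GC, and 25.9% of their windows held a GC box. For the 1764 members found at their position in 1 line, these values were 43.5%, 49.5% and 8.39%. Of the 18 sites with summits of at least 3 lines, 16 were within 500 bp of a start site and 10 were on chromosome 2. All 18 combined high and low pY-STAT5 lines, which says little about the groups. With 2 low lines no such site can be of low lines alone, and among the high lines KOPT-K1 had only 2 shared members.

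Of the sites of 4 lines, the one with the higher mean −log10 q (18.8) lay where MAIP1 and TYW5, a head-to-head gene pair, overlap. MAIP1 encodes a mitochondrial protein that assists the m-AAA protease, and TYW5 an enzyme that modifies phenylalanine transfer RNA. The 4 summits fell within 55 bp, from chr2 position 199955587 to 199955642, in exon 1 of the canonical MAIP1 transcript and upstream of the canonical TYW5 transcript, though inside a longer TYW5 transcript. Fold enrichment there was 4.32 in DND-41, 2.84 in LOUCY, 3.14 in HSB-2 and 2.20 in SUP-T13, with −log10 q of 27.9, 19.2, 23.6 and 4.43. KOPT-K1 and JURKAT had no member at either gene. A JURKAT interval of 4653339 bp (−log10 q 9.81) did span the site, but its summit lay at SF3B1. The windows were 71.3% to 75.2% GC, and the best partial match to the palindrome had 2 mismatches in each.

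INO80D gave the only other site of 4 lines. Its summits lay within 53 bp, 338 to 391 bp downstream of the start site, with −log10 q of 11.4 in LOUCY, 6.94 in HSB-2, 6.83 in JURKAT and 4.15 in SUP-T13. The intervals around them ran from 1331 bp in SUP-T13 to 4521072 bp in LOUCY, so the same summit was reported inside a narrow peak in 1 line and a very long enriched stretch in another. Over all members the median interval was 3360 bp in JURKAT, 3776 in SUP-T13, 4346 in DND-41, 11995 in HSB-2, 10479.5 in KOPT-K1 and 19224 in LOUCY, and 36 members lay in intervals over 1 Mb.

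NOTCH2, a receptor of the Notch family, and its partial human-specific copies had members in 1 to 4 lines each, which was not tested. At NOTCH2 the summits of HSB-2, LOUCY and JURKAT lay within 14 bp, 16 to 30 bp downstream of the start site in exon 1, with −log10 q of 13.1, 10.6 and 3.83. The DND-41 summit was elsewhere, in intron 4, at 4.80. NOTCH2NLA, which shares its summits with NBPF10, had members in LOUCY (−log10 q 14.7), HSB-2 (11.8), JURKAT (7.91) and SUP-T13 (7.78). NOTCH2NLC, which shares them with an unnamed protein-coding gene, had members in the same 4 lines, at 8.35, 11.0, 5.16 and 9.37. NOTCH2NLR, which shares its summits with NBPF26, had members in HSB-2 (8.46), SUP-T13 (8.31) and JURKAT (4.66). NOTCH2NLB had one in HSB-2 alone (5.25). Because these copies are nearly identical in sequence, reads cannot always be assigned to one of them, and the peaks of the family are not independent sites.

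The 7 genes with members in 5 lines did not exceed a −log10 q of 9.81. At WNT10A it was 7.64 in JURKAT, 8.02 in LOUCY and 9.81 in HSB-2 at the shared exon 4 site, whereas the summits of DND-41 (2.37) and SUP-T13 (1.81) were in intron 2. PNKD, a gene of a paroxysmal movement disorder, had its strongest members in JURKAT (5.71), HSB-2 (6.61) and LOUCY (8.48) at the 5′ end it shares with AAMP. Its site of 3 lines was a weaker one in intron 2, with −log10 q of 2.82 in LOUCY, 2.65 in DND-41 and 2.47 in SUP-T13. For TARS2, the mitochondrial threonyl-tRNA synthetase, the 5 values ran from 1.94 in JURKAT to 4.43 in LOUCY. IFT172, a subunit of the ciliary transport machinery, and PLB1, a phospholipase, were the 2 of these genes with a KOPT-K1 member, at −log10 q of 1.43 and 1.91. No site of these genes other than WNT10A and PNKD joined 3 lines. STXBP3, a regulator of vesicle fusion, reached 4.56 and PSMD4, the ubiquitin receptor of the proteasome, 3.56, both in SUP-T13.

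**Figure D4:**
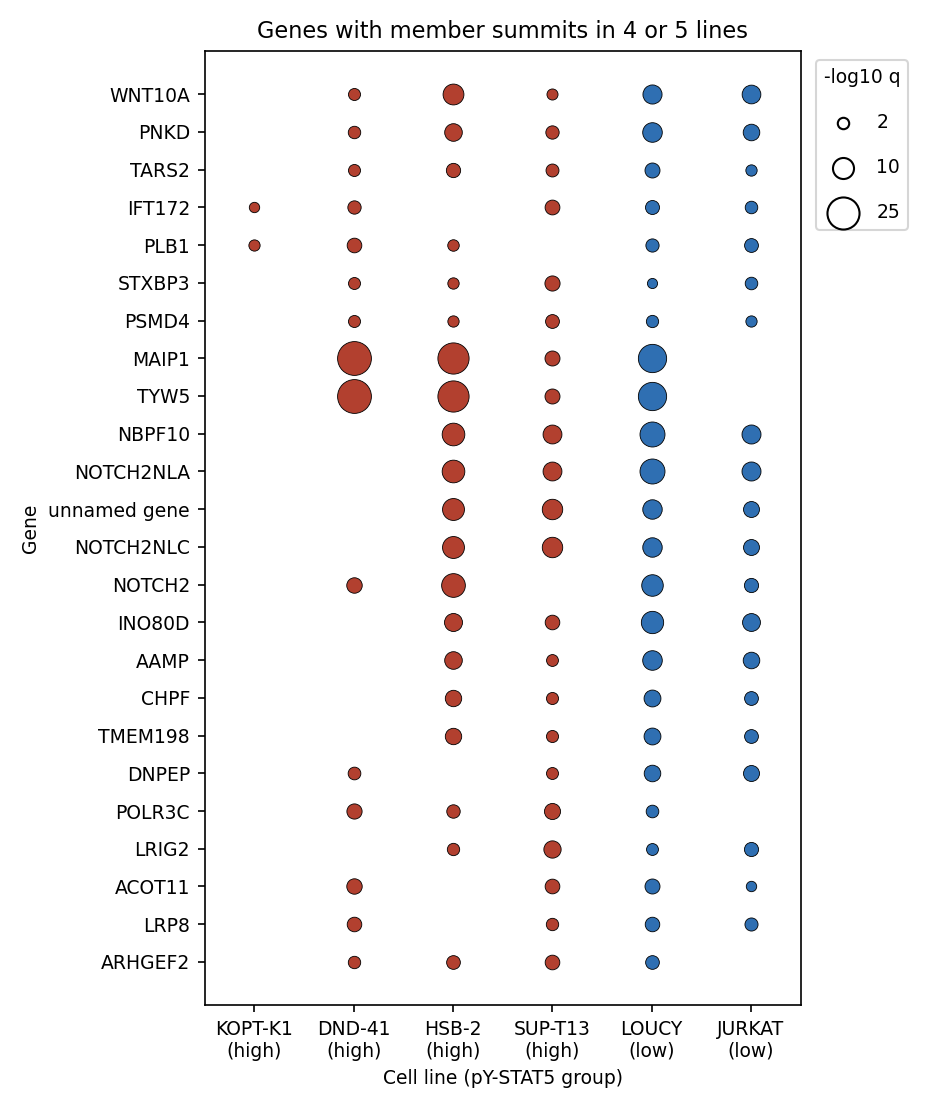
Member summits at 24 of the 25 genes with members in the most lines (vertical axis) in each line (horizontal axis), where a circle marks a member and its area grows with −log10 q of the strongest one (red, high pY-STAT5; blue, low pY-STAT5). KOPT-K1 has circles at IFT172 and PLB1 only, and the largest circle, 27.9, is that of DND-41 at MAIP1 and TYW5.

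Further genes with members in 4 lines covered varied functions. CHPF, a chondroitin polymerizing factor, and TMEM198 shared 4 summits with −log10 q from 2.40 in SUP-T13 to 5.95 in LOUCY. DNPEP, an aminopeptidase, ranged from 2.34 to 5.71, POLR3C, a subunit of RNA polymerase III, from 2.75 to 5.30, and LRIG2, a membrane protein, from 2.29 to 6.31. ACOT11, an acyl-CoA thioesterase, LRP8, a reelin receptor, and ARHGEF2, a guanine nucleotide exchange factor, did not exceed 4.76, 4.11 and 4.17.

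Nearly all of the strongest members lay close to start sites. In DND-41 the first was CCT7, a chaperonin subunit that shares the summit with PRADC1 (fold 4.25, −log10 q 50.6, 12 bp upstream of the start site), followed by HTRA2, a mitochondrial protease, shared with AUP1 (4.38 and 37.6). KOPT-K1 had TLK1, a kinase of chromatin assembly (2.87 and 6.47), and FASTKD1, a mitochondrial RNA regulator (2.93 and 6.38). After MAIP1, HSB-2 had NOTCH2, and LOUCY had PRKRA, a regulator of the kinase PKR, shared with PJVK (2.77 and 15.2); PRKRA was also a member in DND-41 (3.32 and 18.0) and KOPT-K1 (2.39 and 3.46). In SUP-T13 the first ones were TTC27 (3.02 and 11.2) and ATXN7L2 (2.98 and 9.63), and for JURKAT SF3B1, a core splicing factor (2.54 and 9.81), and NDUFB3, a subunit of respiratory complex I (2.39 and 8.46). Of these 12 summits, 11 were within 250 bp of a start site; FASTKD1, at 963 bp, was the exception.

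Among T-lymphoid genes, 21 of 56 on these chromosomes (37.5%) had a member, beside 33.4% of all genes. Counting only genes with a listed summit of any kind within 500 kb in some line, the shares were 45.7% of 46 T-lymphoid genes and 45.5% of all 2432 such genes. SUP-T13 had 11, JURKAT 8, DND-41 7, HSB-2 3, LOUCY 2 and KOPT-K1 0. VAV3, a guanine nucleotide exchange factor below antigen receptors, was found in DND-41 (−log10 q 3.05), LOUCY (2.80) and JURKAT (2.61), at a different position each time, in introns 13, 19 and 14. CD101, an inhibitory surface receptor, had members in the same 3 lines at 3.38, 1.41 and 3.47. ITGA4, the integrin alpha 4 chain, had a member in exon 1 in SUP-T13 (2.88) and 288 bp upstream of the gene in JURKAT (6.39). CD160 was found in DND-41 (4.59) and JURKAT (1.82). Of the 21 genes, 13 had members in high lines alone, 2 in low lines alone and 6 in both, where all member genes gave 53.3%, 18.5% and 28.2% and the 4 high lists hold more members.

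Cytokine and JAK-STAT genes had a member at 13 of 39 (33.3%; 37.1% of the 35 with a summit within 500 kb), 7 of them in high lines alone, 1 in low lines alone and 5 in both (53.3%, 18.5% and 28.2% of all member genes). IL12RB2, a chain of the interleukin-12 receptor, had members in DND-41 (1.98), SUP-T13 (4.06) and JURKAT (2.45), IL23R in SUP-T13 (4.35) and JURKAT (2.79), and PTPRF, a receptor phosphatase, in DND-41 (4.44) and SUP-T13 (3.92).

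Transcription factors and oncogenes of blood cells had a member at 19 of 53 genes (35.8%; 51.4% of the 37 with a summit within 500 kb). Besides NOTCH2 these included SMARCAL1, a remodeler of stalled replication forks, in 4 lines (−log10 q 4.43 in LOUCY, 3.55 in DND-41, 3.11 in JURKAT and 2.19 in SUP-T13). IDH1, an isocitrate dehydrogenase mutated in leukemia, was found in DND-41 (5.44), HSB-2 (4.33) and JURKAT (2.92), with 2 of the summits 14 and 15 bp downstream of the start site.

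Among genes of cell growth the shares varied, beside 33.4% of all genes and 45.5% of genes with a summit within 500 kb. Cell cycle and repair genes had a member at 20 of 63 (31.7%, or 48.8% of the 41 with a summit within 500 kb). In SUP-T13 there were 14, or 51.9% of the 27 with a SUP-T13 summit within 500 kb, beside 30.3% of all such genes. These 14 include the caspase genes CASP8 and CASP10 and the kinesin gene KIF3C, which the list also holds. By the same measure the other lines ran from 0% in KOPT-K1 and 13.3% in HSB-2 to 34.8% in JURKAT. ORC2, a subunit of the origin recognition complex, was shared by HSB-2 (−log10 q 8.58), SUP-T13 (1.61) and LOUCY (4.51) at 1 site. XRCC5, the larger Ku subunit, reached 5.35 in JURKAT and RAD54L, a recombination helicase, 3.95 in DND-41. RNA-processing genes had 18 of 52 (34.6%), among them DDX20 in 3 lines and HNRNPA3, RNPC3 and SF3A3 in 2 each. Genes of the respiratory chain and mitochondrial ribosome had 11 of 32 (34.4%), led by MRPS21, with a site of DND-41 (3.76), SUP-T13 (4.61) and JURKAT (2.21). NDUFB3 and ATP5MC3, an ATP synthase subunit, had members in 2 lines each, as did MRPL37. Ribosomal and translation factor genes had 5 of 19 (26.3%; 45.5% of 11 with a summit within 500 kb), among them RPL37A, RPL5, EEF1B2 and EIF2B4, and zinc finger genes, taken by symbol, 8 of 42 (19.0%; 30.8% of 26), led by ZNF142 in 3 lines and ZNF513 and ZNF687 in 2; ZFP36L2 was a KOPT-K1 member inside an interval of 1445247 bp.

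Genes of other tissues had members as well, at shares above and below that of all genes (33.4%, or 45.5% of genes with a summit within 500 kb). Markers of other blood lineages had a member at 18 of 42 genes (42.9%, or 54.5% of the 33 with a summit within 500 kb). In JURKAT there were 11, or 45.8% of the 24 with a JURKAT summit within 500 kb, beside 27.1% of all such genes. IFI16 had members in SUP-T13, HSB-2 and LOUCY, PYHIN1 in SUP-T13 and HSB-2, and AIM2 in DND-41 and JURKAT. Ion channel and synapse genes had 21 of 64 (32.8%), with KCNA2 in 4 lines, CHRNB2 and KCNC4 in 3 and KCNN3 in 2. Of 61 genes of the epidermal differentiation complex 24 (39.3%) had a member in 1 line each: 19 in JURKAT, 4 in SUP-T13 and 1 in LOUCY, although a listed summit lay within 500 kb of all 61 in DND-41 and HSB-2, where no gene had one. The 19 in JURKAT were 31.1% of the 61, beside 27.1% of all genes with a JURKAT summit within 500 kb. Over all lines the 39.3% stands beside 45.5% of all genes with a summit within 500 kb. The strongest were S100A2 in LOUCY (−log10 q 6.44), S100A10 and S100A11 in SUP-T13 (3.41 and 3.24) and PGLYRP4 in JURKAT (3.28). Olfactory receptor genes had 10 of 67 (14.9%), yet only 17 of the 67 had a listed summit within 500 kb, and 58.8% of those had a member. JURKAT had 7 of the 10, or 41.2% of the 17, beside 27.1% of all genes with a JURKAT summit within 500 kb. OR6K3 in HSB-2 (3.72) was the strongest, followed by OR10K2 in SUP-T13 (2.78), and OR10R2 (2.50) and OR10Z1 (2.35) in JURKAT. Histone genes had 2 of 16 (12.5%; 13.3% of the 15 with a summit within 500 kb), H2AC18 in SUP-T13 and LOUCY and H2AC19 in LOUCY and JURKAT. Recently duplicated families, whose copies share reads, had 44 of 129 (34.1%), with NBPF26 at 8.46 in HSB-2. A member is itself a listed summit, so a gene with a member always counts as covered, and the shares of covered genes depend in part on the members themselves. These counts describe the peak lists, and no difference between gene lists was tested.

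**Figure D5:**
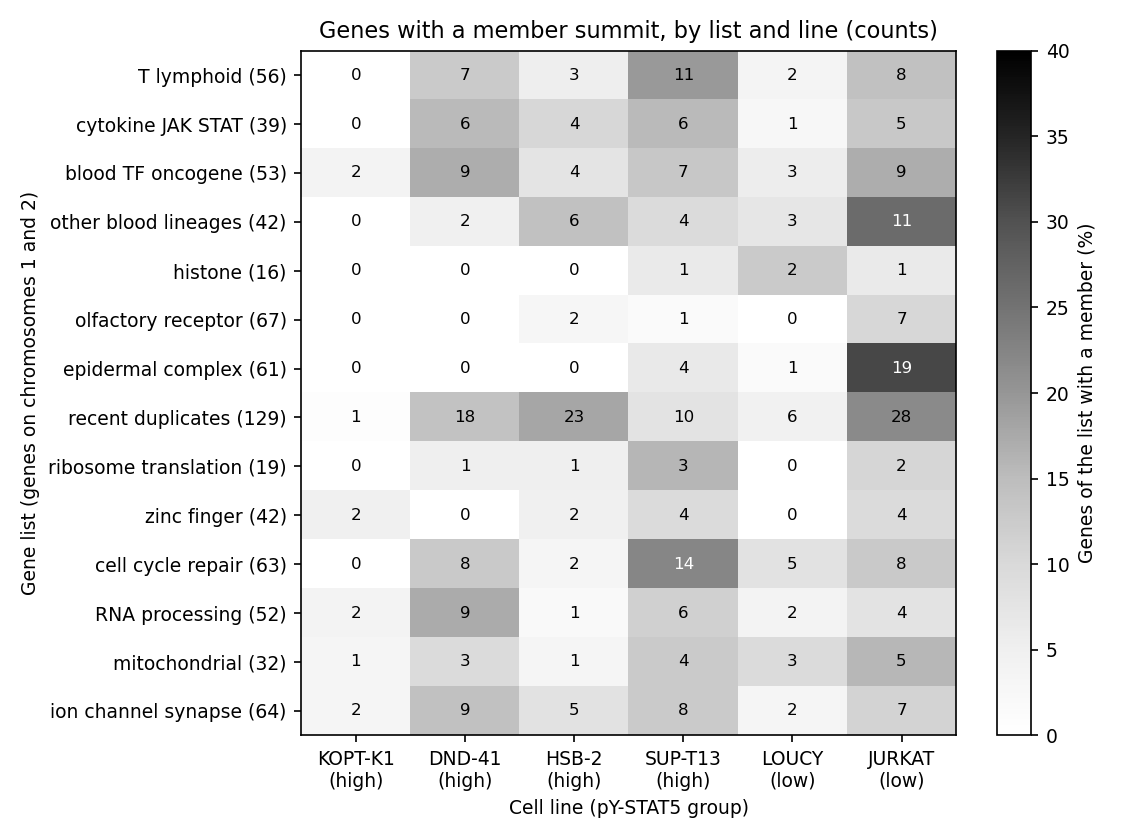
Number of genes with a member for each of 14 gene lists (vertical axis, with the genes of the list on chromosomes 1 and 2 in brackets) and line (horizontal axis), shaded by the percent of the list. JURKAT has 19 genes of the epidermal complex and 28 recent duplicates, SUP-T13 has 14 genes of the cell cycle and repair list, and KOPT-K1 has at most 2 in any list. Of all genes, 11.9% have a member in JURKAT and 14.8% in SUP-T13.

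By pY-STAT5 group, 589 of the 1106 genes (53.3%) had members in high lines alone, 205 (18.5%) in low lines alone and 312 (28.2%) in both; the 4 high lists together hold 1325 members and the 2 low lists 659. No gene had a member in all 4 high lines. In 3 high and no low line there were 4 genes, but each lay inside a long low-line interval whose summit was elsewhere. The LOUCY interval at INO80D (4521072 bp) spanned CCNYL1, and the JURKAT interval at SF3B1 (4653339 bp) spanned PLCL1. RNF25 and TTLL4 lay inside both the LOUCY interval at WNT10A (319548 bp) and the JURKAT interval at ZNF142 (314867 bp). CCNYL1, a cyclin Y relative, had members in DND-41 (−log10 q 8.93), HSB-2 (5.74) and SUP-T13 (2.99), at 3 different positions around its 5′ end. PLCL1, a phospholipase C relative, was found in KOPT-K1 (1.85), DND-41 (7.64) and SUP-T13 (2.69), and RNF25, a ubiquitin ligase, and TTLL4, a glutamylase of tubulin, in DND-41, HSB-2 and SUP-T13 with values up to 5.29 and 4.11.

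Another 113 genes had members in 2 high and no low line. TTC21B, a ciliary protein, had its summits 83 bp upstream in KOPT-K1 and 148 bp upstream in DND-41, with fold enrichment of 2.62 and 3.68 and −log10 q of 4.56 and 20.1. BAZ2B, a bromodomain protein, reached 4.98 and 18.1 in the same lines. SGO2, a guardian of centromere cohesion, was found in DND-41 (14.5) and SUP-T13 (3.23). Long intervals of LOUCY (2965399 bp) and JURKAT (4653339 bp), with their summits at other genes, also spanned SGO2. The gene pair DCAF17 and METTL8 was found in KOPT-K1 (3.81) and DND-41 (10.2).

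Both low lines and no high line had members at 26 genes. NDUFB3 and HYCC2, a divergent pair, had summits 99 and 53 bp upstream of an NDUFB3 start site, at −log10 q of 6.96 in LOUCY and 8.46 in JURKAT. YPEL5 reached 10.2 in LOUCY and 2.40 in JURKAT, TTF2, a transcription termination factor, 5.50 and 4.08, MYBPHL, a muscle protein, 5.56 and 3.18, and OTUD7B, a deubiquitinase, 5.66 and 2.20. With 1 library per line, absence from a list cannot be told apart from a peak that missed the caller's threshold. Each listed peak has 1 summit, so a gene spanned by a long interval can lack a member although enrichment was called over it.

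Pairs of lines shared genes within and across groups. DND-41 and SUP-T13, both high, shared 123 genes, 30.6% of the first list and 25.2% of the second. LOUCY and JURKAT, both low, shared 80 (39.4% and 20.3%). Across groups, SUP-T13 and JURKAT, both with long lists, shared 128 (26.2% and 32.5%), HSB-2 and JURKAT 108 (48.9% and 27.4%) and SUP-T13 and LOUCY 89 (18.2% and 43.8%). JURKAT had members at 11.9% of all genes and at 27.1% of genes with a JURKAT summit within 500 kb. Its share was 48.9% of the HSB-2, 39.4% of the LOUCY and 26.2% of the SUP-T13 genes, and these differences were not tested. KOPT-K1 shared at most 13 genes with any line, DND-41, which made up 23.6% of its 55. By site, 16 of 226 HSB-2 members (7.08%) lay within 250 bp of a LOUCY member, and KOPT-K1 members were within 250 bp of a member of 1 other line at 2 positions.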

How the data were processed

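STAT5B ChIP-Seq peak lists of 6 T-ALL lines were used, 1 library per line. Per the study's methods, the authors used PRINSEQ-lite for read filtering, BWA 0.7.15-r1140 for alignment to GRCh38 and SAMtools 1.4; peak calls came from MACS2 with the input of the same line as control, and its options are not stated. The deposited fold enrichment is a ratio of the STAT5B library to input at the summit. The deposited significance values are −log10 p and −log10 q of the authors' caller. Input libraries entered no comparison. No read counts are in these lists, so depth is not analysed here.

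Start sites were those of all transcripts of the 3308 protein-coding genes of chromosomes 1 and 2 in GENCODE 44. Windows of 101 bases were read from GRCh38; 3 summits with unsequenced bases, 1 each in HSB-2, SUP-T13 and LOUCY, were left out. A match had to lie whole within the window. Backgrounds were palindrome-free positions every 50 bp. Group differences were tested with exact permutation tests over lines (15 splits), other differences with exact sign-flip permutation tests (64 sign patterns), Benjamini-Hochberg adjusted over 4 results or 12 motifs. Replicates are separate cell lines, so p-values measure the spread between lines. Genes named were the 25 with members in most lines, those nearest to the 2 strongest members of each line, up to 4 per gene list, and up to 10 high-only and 6 low-only genes, ranked by number of lines and mean −log10 q, and a few of these were left out of the text; sites described by position were singled out after their values were seen. The members and lists were chosen with earlier results of these data known. Alternatives were windows of 1 and 5 kb, gene 5′ ends, absence within 100 bp or with 1 mismatch, −log10 q of at least 5, intervals up to 5 kb, equal list lengths and leaving out each line; the local background and single chromosomes were added after seeing the data. Python 3.11.15, NumPy 2.4.6, SciPy 1.17.1 and matplotlib 3.10.9 were used, and the search was tested on simulated data.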

Additional observations from a re-analysis of the deposited data

How the results depend on the processing

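No paired analysis was possible because each line gave 1 STAT5B library and replicate numbers only index different lines. Of 147 values under other settings, 112 kept their direction and their side of the threshold, though differences among them could change much in size, 15 were gene counts that moved, 11 reversed and 9 passed the threshold there alone.

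The member number, high minus low lines, turned to -29.25 with 5 kb, -4.25 with no palindrome within 100 bp, -6.25 with matches of 1 mismatch also excluded and -10.75 with intervals up to 5 kb, and ran from -124.75 to 128.25 with a line left out. The member share turned to 0.399 with equal list lengths and fell to -9.79 at −log10 q of at least 5. The cause was not tested.

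With gene 5′ ends, the excess at promoters was 1.57 points, that within 500 bp 23.7 points and the fold difference 0.122, and with matches of 1 mismatch also excluded the excess within 500 bp was 14.9 points, that of GC 4.53 points and the fold difference 0.0521. The excess at promoters was 14.6 points at −log10 q of at least 5 and 7.18 with equal list lengths, that within 500 bp 45.8 and 26.0, and that of GC 16.7 and 8.80. On chromosome 2 alone, chosen after seeing the data, the excess at promoters was 6.92 points, that of GC 10.3 points and the fold difference 0.0993. The values with gene 5′ ends, matches of 1 mismatch excluded and chromosome 2 had an adjusted p of 0.0417 in the exact permutation test; over all alternatives it ran up to 0.875 at promoters, 0.167 within 500 bp, 0.6875 for GC and 0.875 for fold. The fold difference turned to -0.0843 at −log10 q of at least 5, -0.00847 with intervals up to 5 kb and -0.00480 with equal list lengths.

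Genes with a member were 240 at −log10 q of at least 5, 578 with equal list lengths and 337 on chromosome 2. Genes with members in at least 3 lines were 78 with 1 kb, 382 with 5 kb, 35 with gene 5′ ends, 90 with matches of 1 mismatch also excluded, 11 at −log10 q of at least 5, 19 with intervals up to 5 kb, 37 with equal list lengths and 43 on chromosome 2, and ran from 69 to 148 with a line left out. Of the 97 genes that the naming rule gives, 80 changed their number of lines at −log10 q of at least 5 and 88 with intervals up to 5 kb. The local background and chromosome 1 alone, also chosen after seeing the data, kept the direction of the results run there, but single lines turned against the local background, and the excess at promoters shrank to 0.583 and 0.316 points (exact permutation tests, adjusted p = 0.156 and 0.875) and that of GC to 1.90 points on chromosome 1. With intervals up to 5 kb they shrank to 0.684 and 1.72 points. Read depth is not in these lists, so what it limits could not be measured.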
